A study of Drosophila melanogaster with 6 samples.

Results

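The genes described here are 43 genes of the fly endoplasmic reticulum (ER) that carry secreted and membrane proteins through import, folding and quality control. They are a list named by function, drawn up with earlier results of these data known, and the rule that defines it sets no threshold on a measured value. They fall into 9 classes by role, and all 43 were found among the 15133 genes of the deposited libraries and were among the 8943 genes with enough counts to be tested. Proteins bound for the cell surface or the extracellular matrix are recognised as they leave the ribosome by the signal recognition particle (SRP), docked at the ER and threaded through the Sec61 channel. Inside, the signal peptide is cut off, sugars are attached, chaperones and disulfide isomerases fold the chain, and chains that fail are sent back to the cytosol and degraded. When unfolded proteins build up, the sensors Ire1, PEK and Atf6 start the unfolded protein response, which raises the amounts of many of these same components. Imaginal disc epithelia secrete apical matrix and cuticle proteins at metamorphosis and therefore use this machinery.

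RNA was measured by polyA+ RNA-seq in leg discs, the epithelial sacs that give rise to the adult legs, from white [1118] animals at 2 stages. The 2h APF group holds 3 libraries of discs taken 2 hours After Pupal Formation, and the wL3 group holds 3 libraries of discs from wandering larvae of the last instar, dissected ahead of the ecdysone peak that triggers pupariation. All libraries share the same genotype, with no mutation or treatment to compare, so stage is what sets the groups apart. The labels number the libraries of a stage and do not say whether they came from separate animals or dissections, so the p-values below measure only the spread between these libraries. The number of discs behind a library is not given in the sources used here. The estimated counts added up to between 24395318 and 30880112 at 2h APF and between 27514509 and 33373176 at wL3. The 43 genes received between 591 and 151342 counts in a library, with the lowest count in Ire1. All 10 leg disc epithelium markers looked at were detected in both stages, and none was at 3 counts or fewer in a stage. Their summed CPM (counts scaled to a common library size) was between 2979 and 3203 at 2h APF and between 2839 and 2893 at wL3, with grh and ss called higher at 2h APF, Dll, Antp, bab2 and Lim1 called lower, and 4 not called, dac among them.

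ER genes were higher in leg discs at 2h APF than at wL3. With a threshold of 0.05 on the adjusted p (quasi-likelihood test of edgeR, with Benjamini-Hochberg adjustment over all genes tested), 40 of the 43 rose, 0 fell and 3 (Stt3A, Ire1 and PEK) did not pass the test. Over all genes tested, 67.4% were called by the same rule, 30.6% as higher and 36.9% as lower. No ER gene was lower at an unadjusted p under 0.05 either. DESeq2 also gave 0 lower, and scaling by total library size gave 1 (Stt3A). In 20 of the 43 the increase was beyond 1 log2 unit, which was the case for 9.74% of all genes tested, and 0 fell beyond 1 log2 unit, against 8.9% of all genes. Scaled by total library size, 12 of the 43 rose beyond 1 log2 unit. The median log2 fold change of 2h APF over wL3 was 0.93 for the 43 genes and −0.04 for all genes, whose middle 50% lay between −0.40 and 0.38. In 40 of the 43 genes every 2h APF library lay above every wL3 library, an arrangement found in 33.3% of all genes. With 3 libraries against 3 an exact permutation test of 1 gene cannot give a p under 0.1, so the calls rest on the fit across genes. In bulk discs, a change in the number of cells that express a gene and a change in the RNA per cell cannot be told apart.

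**Figure D1:**
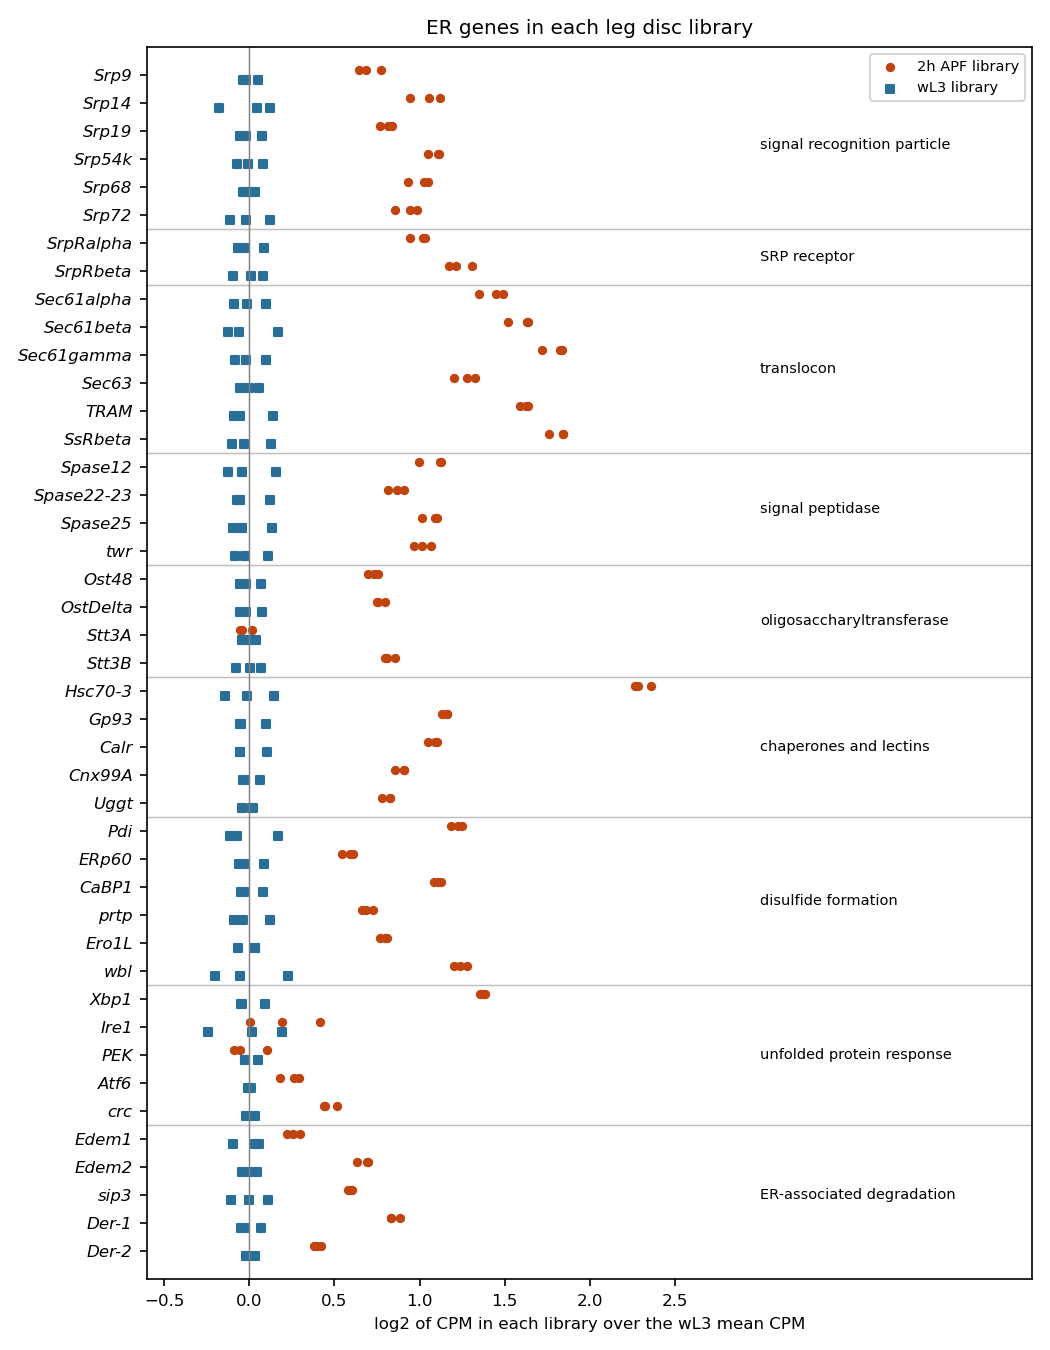
Level of each of the 43 ER genes in each library, as log2 of its CPM over the mean CPM of the wL3 libraries (x axis), with genes down the y axis grouped by role; orange circles are the 3 libraries of 2h APF and blue squares the 3 libraries of wL3. Circles lie right of all squares in 40 genes, with Hsc70-3 farthest to the right, and circles and squares mix in Stt3A, Ire1 and PEK.

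The 43 genes together made up 2.24%, 2.30% and 2.28% of all transcripts at 2h APF (as TPM, a share of all transcripts after dividing counts by length), against 1.07%, 0.961% and 0.993% at wL3. The stages did not overlap, and the ratio of the mean sums was 2.25. Without Hsc70-3, the gene with the largest fold change, the ratio was 2.13. At 2h APF 7 of the genes were above 1000 TPM on average, against 1 at wL3. The 3 highest at 2h APF, Calr, Hsc70-3 and Pdi, held 30.3% of the summed TPM at 2h APF, and the same 3 held 25.4% at wL3.

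Within a stage the genes moved together from library to library. At 2h APF replicate 1 was the lowest library of its stage for 31 of the 43 genes, and at wL3 replicate 1 was the highest for 39 and replicate 2 the lowest for 37. Such counts were not made over all genes tested. The median log2 deviation of the 43 genes from the stage mean was −0.035, 0.085 and −0.057 in these libraries, in that order. For all genes tested it was −0.012, 0.00092 and −0.0017. The median coefficient of variation of the 43 genes was 2.68% at 2h APF and 5.59% at wL3, against 5.57% and 4.54% for all genes tested. The ER genes had more counts, with a median lowest count of 4093 in a library, beside 625 for all genes tested. The wL3 library in which ER genes were highest, replicate 1, was also the wL3 library with the lowest summed fat body markers, 35.3 CPM beside 3712 and 2339 CPM in replicates 2 and 3, and the part of these markers in the ER levels was not tested. Without that library the median of the log2 fold changes was 1.03, with 22 genes beyond 1 log2 unit.

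Other tissues that secrete heavily could lie beside a dissected disc, and none of their marker lists was higher in every 2h APF library than in every wL3 library. The 5 salivary glue genes measured (Sgs1, Sgs3, Sgs5, Sgs7 and Sgs8) were each at 3 counts or fewer in every 2h APF library, and their summed CPM was 0.261, 0.271 and 0.175 at 2h APF, against 50.9, 65.3 and 194 at wL3. Summed fat body markers (6 genes, the larval serum protein genes Lsp1 and Lsp2 among them) were at 576, 874 and 195 CPM at 2h APF. At wL3 they were at 35.3, 3712 and 2339 CPM, with overlap between the stages. Fbp1 was the largest member, with 399, 710 and 134 CPM at 2h APF, and 11.3, 1269 and 1261 CPM at wL3. Summed hemocyte markers (6 genes) were at 28.6, 26.4 and 21.2 CPM at 2h APF, against 144, 298 and 233 CPM at wL3. For myoblast and muscle markers (6 genes, with Tm2 at 0 counts at 2h APF) the sums were 212, 213 and 201 CPM at 2h APF, and 162, 251 and 251 CPM at wL3. Within that list the myoblast genes twi, Him and htl rose, with log2 fold changes of 0.53, 0.96 and 0.63, while Tm2 fell and Mef2 and Act57B were not called. All 5 salivary gland and all 6 hemocyte genes were called lower at 2h APF, and of the fat body genes 2 were lower and 4 not called. The part of these tissues and of the myoblasts in the ER levels was not tested.

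Signal recognition comes first in the pathway. The SRP binds the signal peptide as it emerges from the ribosome, slows translation and brings the ribosome to the ER membrane. All 6 SRP protein genes rose, 3 of them beyond 1 log2 unit (0 of them when scaled by total library size), and their median log2 fold change was 0.97. Srp54k, the GTPase subunit that holds the signal peptide, was at 322, 336 and 335 CPM at 2h APF, against 164, 148 and 155 CPM at wL3, a log2 fold change of 1.09 (SE 0.0447, adjusted p = 2.44e-06, edgeR). Srp14, which with Srp9 forms the end of the particle that slows translation, was at 51.0, 57.7 and 55.0 CPM at 2h APF, against 28.8, 23.4 and 27.3 CPM at wL3 (log2 fold change 1.04). Neither gene overlapped between the stages, and Srp14 varied more from library to library than Srp54k did. Its partner Srp9 rose by less, with a log2 fold change of 0.70, and the TPM ratio of Srp14 to Srp9 was 2.14 ± 0.0215 at 2h APF and 1.72 ± 0.141 at wL3 (SD, n = 3 each). Srp68 and Srp72, which bind each other on the SRP RNA, were at log2 fold changes of 1.00 and 0.93, and Srp19, which helps the particle assemble, was at 0.81.

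Docking at the membrane needs the SRP receptor, whose alpha subunit is a GTPase that meets Srp54k and whose beta subunit anchors it. Both genes rose. SrpRbeta was at 136, 150.2 and 141 CPM at 2h APF, against 64.1, 56.7 and 61.1 CPM at wL3, a log2 fold change of 1.23 (SE 0.0579, adjusted p = 3.7e-06, edgeR). SrpRalpha was at 328, 349 and 346 CPM at 2h APF, against 181, 167 and 163 CPM at wL3. With a log2 fold change of 0.9996 it fell just short of 1 log2 unit, and Srp68, at 1.0023, was just past it.

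The translocon was the class with the highest median, 1.61, and all 6 of its genes rose beyond 1 log2 unit. Sec61alpha forms the pore, and Sec61beta and Sec61gamma are its small partners. Sec61alpha was at 1779, 1965 and 1910.2 CPM at 2h APF, against 748, 657 and 692 CPM at wL3, a log2 fold change of 1.43 (SE 0.0586). Sec61beta was at 719, 781 and 775 CPM at 2h APF, against 282, 230.2 and 240.5 CPM at wL3, a log2 fold change of 1.60 (SE 0.0796). Sec61gamma (FBgn0031049, X:19643327-19644518 in BDGP6.54) was at 344, 372 and 369 CPM at 2h APF, against 112, 98.5 and 103 CPM at wL3, a log2 fold change of 1.80 (SE 0.0562, adjusted p = 1.59e-06, edgeR). In each of the Sec61 genes the lowest 2h APF library was more than 2 times the highest wL3 library, and replicate 1 was the lowest at 2h APF. The subunits of this 1:1:1 complex did not keep a constant ratio of transcripts. Per length, Sec61gamma was at 0.660 ± 0.0105 of Sec61alpha at 2h APF and 0.516 ± 0.00268 at wL3, and Sec61beta at 1.22 ± 0.0153 of Sec61alpha at 2h APF and 1.09 ± 0.0457 at wL3 (ratios of TPM, SD, n = 3 each). These ratios, 11 pairs in all, were chosen after values had been seen and are descriptions without a test.

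The genes for proteins that flank the channel rose alongside it. SsRbeta, a subunit of the translocon-associated TRAP complex, was at 624, 660.4 and 660.3 CPM at 2h APF, against 201, 172 and 180.1 CPM at wL3, a log2 fold change of 1.82 (SE 0.0627, adjusted p = 1.63e-06, edgeR). TRAM, a membrane protein that contacts the entering chain, was at 732, 755 and 749.8 CPM at 2h APF, against 267, 228 and 233 CPM at wL3 (log2 fold change 1.62). Sec63, which recruits the chaperone BiP to the inner mouth of the channel, had the smallest log2 fold change of the class, 1.27 (SE 0.0452), although its exons share 1787 bases with an antisense RNA gene on the opposite strand.

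Signal peptidase cuts the signal peptide from the chain as it enters. All 4 subunit genes rose, 3 of them beyond 1 log2 unit, or 0 of them when scaled by total library size. The catalytic subunit gene twr was at 328, 352 and 339.8 CPM at 2h APF, against 181, 158 and 165 CPM at wL3, a log2 fold change of 1.02 (SE 0.0554, adjusted p = 6.37e-06, edgeR). The other subunits, Spase12, Spase25 and Spase22-23, were at log2 fold changes of 1.08, 1.07 and 0.86. The 4 genes thus lay within a narrow band around 2-fold, with no overlap between the stages in any of them. Spase12 shares 493 exon bases with a gene on the opposite strand, as many as its target is long. For twr 379 exon bases are shared in this way, beside a target length of 855 bases.

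N-glycans are attached by the oligosaccharyltransferase, and here the catalytic subunits parted. Flies, like mammals, have 2 of them, and in mammals STT3A works with the translocon as the chain enters while STT3B can act on sites that were skipped. Stt3B (FBgn0011336, 3R:25066712-25069637) was at 742, 734 and 766 CPM at 2h APF, against 444, 401 and 423 CPM at wL3, a log2 fold change of 0.82 (SE 0.0428, adjusted p = 5.38e-06, edgeR). Stt3A (FBgn0031149, X:21049885-21053937) was at 423, 420.0 and 440.1 CPM at 2h APF, and at 447, 423 and 437 CPM at wL3, a log2 fold change of −0.03 (SE 0.0342, adjusted p = 0.525, edgeR). The stages overlapped for Stt3A and were clearly apart for Stt3B. Stt3A had 1 matched target, whose estimated counts at 2h APF were not whole numbers (9740.3, 10848.4 and 12546.2), unlike those of Stt3B. Some reads of Stt3A may thus have been divided with a target outside its sum, which was not tested. Under total library size scaling, Stt3A was called lower, at −0.14 (adjusted p = 0.00688, range over the alternatives 0.00688 to 0.828). Per length, Stt3B was at 1.85 ± 0.00750 of Stt3A at 2h APF and at 1.02 ± 0.0238 at wL3 (ratio of TPM, SD, n = 3 each). The shared subunits rose with Stt3B, with log2 fold changes of 0.77 for OstDelta and 0.73 for Ost48.

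**Figure D2:**
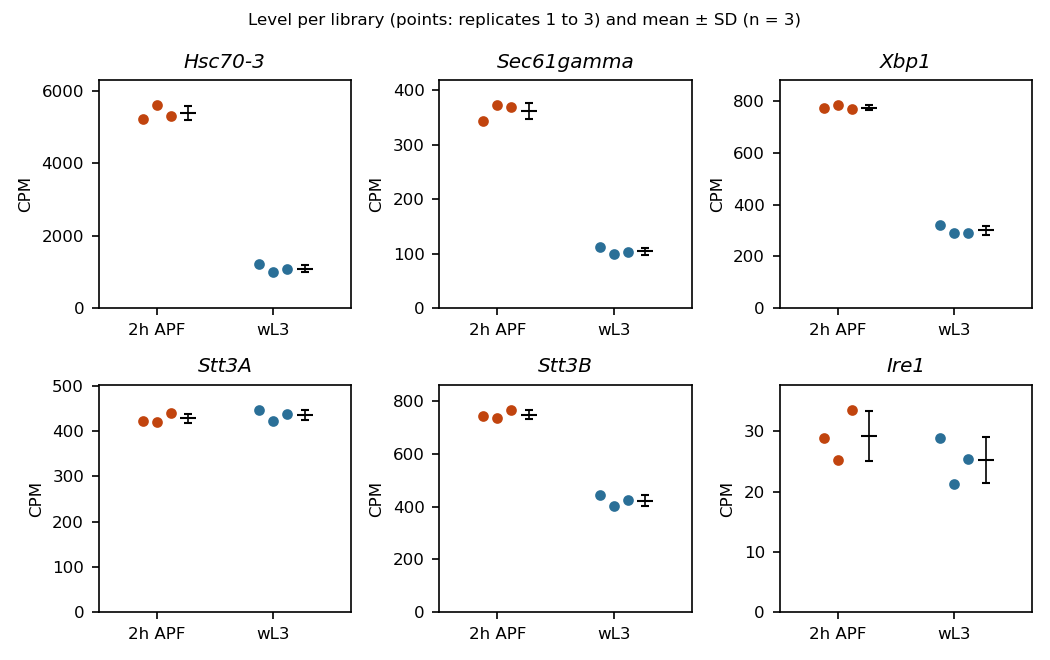
CPM (y axis, from 0) of 6 genes in each library, with orange points for the 3 libraries of 2h APF, blue points for the 3 libraries of wL3, and mean ± SD (n = 3) in black beside them. Hsc70-3, Sec61gamma, Xbp1 and Stt3B are higher in every 2h APF library, with means of 5383 CPM at 2h APF and 1089.6 CPM at wL3 for Hsc70-3, while Stt3A and Ire1 overlap between the stages.

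Folding in the ER lumen relies on Hsc70-3, the fly BiP, an Hsp70 that pulls chains in, holds unfolded stretches and keeps the stress sensors silent. Hsc70-3 (FBgn0001218, X:11801696-11807117) was at 5237, 5602 and 5309 CPM at 2h APF, against 1204, 987 and 1079 CPM at wL3. Its log2 fold change of 2.30 (SE 0.0742, adjusted p = 1.61e-06, edgeR), or 4.94-fold, was the largest of the 43 genes, and the spread within each stage was small beside it. By TPM it moved to rank 2 of the 43 at 2h APF, with 2244 ± 61.0, beside rank 6 at wL3, with 456 ± 42.5 (SD, n = 3 each). Gp93, the fly Hsp90 of the ER, rose by less, and was at 1894, 1927 and 1931 CPM at 2h APF, against 922, 832 and 835 CPM at wL3 (log2 fold change 1.15, SE 0.0446). The TPM ratio of Hsc70-3 to Gp93 was 2.67 ± 0.0814 at 2h APF and 1.20 ± 0.0633 at wL3 (SD, n = 3 each).

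Lectin chaperones hold glycoproteins through their sugars until they are folded. Calr, the soluble lectin calreticulin, was at 2488, 2589 and 2564 CPM at 2h APF, against 1294, 1159.6 and 1159 CPM at wL3, a log2 fold change of 1.08 (SE 0.0487). It was the highest of the 43 genes by TPM in both stages, with 2431 ± 21.7 at 2h APF and 1151 ± 61.8 at wL3 (SD, n = 3 each). Cnx99A, the membrane-bound lectin calnexin, had a log2 fold change of 0.89. Uggt, which puts a glucose back on misfolded glycoproteins so that the lectins bind them again, had one of 0.81. Both lectins and Uggt rose with no overlap between the stages.

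Disulfide bonds are formed and reshuffled by the protein disulfide isomerases. All 6 genes of this class rose, 3 of them beyond 1 log2 unit (2 of them when scaled by total library size), with a median log2 fold change of 0.95. Pdi, the abundant general isomerase, was at 3414, 3573 and 3509.8 CPM at 2h APF, against 1689, 1386 and 1429.6 CPM at wL3, a log2 fold change of 1.22 (SE 0.0741, adjusted p = 1e-05, edgeR). ERp60, the isomerase that in mammals works with the lectins on glycoproteins, was at 1574, 1621 and 1643 CPM at 2h APF, against 1142, 1056 and 1033 CPM at wL3, a log2 fold change of 0.58 (SE 0.0432, adjusted p = 2.57e-05, edgeR). Both rose, by different amounts, and the TPM ratio of Pdi to ERp60 was 1.89 ± 0.0293 at 2h APF and 1.21 ± 0.0727 at wL3 (SD, n = 3 each).

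The less abundant members of the class spanned the same range. CaBP1, an isomerase of the P5 family, had a log2 fold change of 1.11. Ero1L, the oxidase that recharges Pdi, was at 48.9, 47.8 and 49.2 CPM at 2h APF, against 28.7, 26.9 and 28.8 CPM at wL3, a log2 fold change of 0.79. The thioredoxin-like protein gene prtp had one of 0.69. The highest of the class was wbl (windbeutel), an ER protein needed in the ovary for dorsoventral patterning of the embryo, at 304, 289 and 296 CPM at 2h APF, against 147, 109 and 120.5 CPM at wL3. Its log2 fold change was 1.24 (SE 0.103), and its wL3 libraries were more spread than those of Pdi or ERp60.

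**Figure D3:**
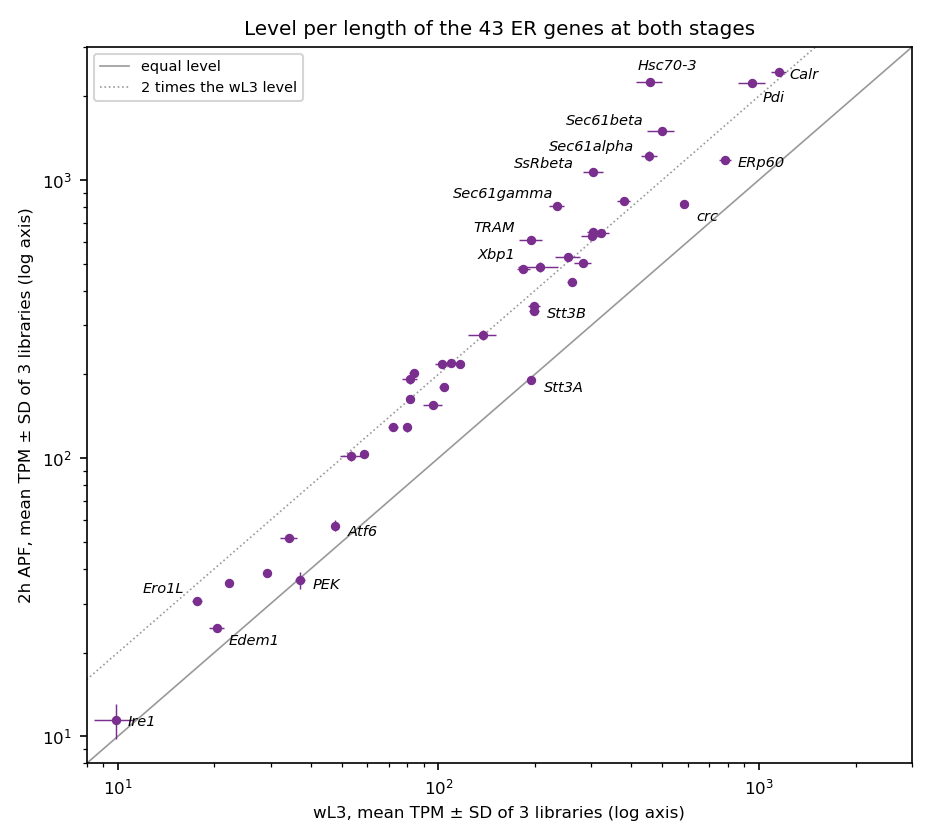
Mean TPM of the 43 genes at 2h APF (y axis, log scale) against mean TPM at wL3 (x axis, log scale), with a point per gene, bars for the SD of 3 libraries, a solid line at equal level and a dotted line at 2 times the wL3 level. Calr is highest in both stages with 2431 TPM at 2h APF and 1151 at wL3, Hsc70-3 lies farthest above the dotted line, and Stt3A, PEK and Ire1 lie near the line of equal level.

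The 5 unfolded protein response genes differed in size of change, with 3 called higher and 2 not called. Xbp1, a transcription factor that activates genes of ER folding and secretion once its mRNA has been spliced by Ire1, rose beyond 1 log2 unit. It was at 774, 784 and 768 CPM at 2h APF, against 319.6, 289.7 and 291 CPM at wL3, a log2 fold change of 1.37 (SE 0.0443, adjusted p = 1.61e-06, edgeR). The gene crc, which encodes the fly ATF4 that is translated when PEK is active, was at 1177, 1238 and 1174 CPM at 2h APF, against 885, 853 and 857 CPM at wL3 (log2 fold change 0.47, SE 0.0326). Both rose with no overlap between the stages, Xbp1 2.58-fold and crc 1.38-fold. The exons of crc share 2515 bases on the same strand with another annotated gene, CG46314, so the counts of crc are less certain.

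The sensors changed little or did not pass the test. Atf6, a membrane-bound transcription factor released by proteolysis, was at 127, 134 and 137 CPM at 2h APF, against 113, 111 and 112 CPM at wL3, and rose with a log2 fold change of 0.24 (SE 0.0371, adjusted p = 9.07e-04, edgeR). Ire1 (FBgn0261984, 3R:19853908-19861291), the kinase and RNase that splices Xbp1, was at 28.8, 25.3 and 33.5 CPM at 2h APF, and at 28.8, 21.3 and 25.4 CPM at wL3. Its log2 fold change was 0.21 (SE 0.136, adjusted p = 0.206, edgeR, range over the alternatives 0.0514 to 0.557), with overlap between the stages and 496 exon bases shared with MICU3 on the opposite strand. PEK (FBgn0037327, 3R:5458563-5464753), the kinase that slows translation under ER stress, was at 146, 128 and 131 CPM at 2h APF, and at 134, 133 and 141 CPM at wL3, with a log2 fold change of −0.01 (SE 0.0558, adjusted p = 0.862, edgeR, range 0.121 to 0.918). By TPM Ire1 was the lowest of the 43 genes in both stages, with 11.4 ± 1.65 at 2h APF and 9.84 ± 1.40 at wL3 (SD, n = 3 each), and the TPM ratio of Xbp1 to Ire1 was 42.3 ± 6.38 at 2h APF and 18.9 ± 2.15 at wL3.

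Degradation of failed chains closes the pathway. All 5 genes of ER-associated degradation rose, none of them beyond 1 log2 unit, and their median log2 fold change was 0.59. Der-1 and Der-2 encode derlins, membrane proteins through which chains leave the ER. Der-1 was at 91.4, 91.6 and 94.9 CPM at 2h APF, against 54.0, 49.7 and 50.5 CPM at wL3 (log2 fold change 0.85, SE 0.0423). Der-2 was at 43.3, 44.6 and 43.8 CPM at 2h APF, against 33.0, 32.8 and 34.0 CPM at wL3 (log2 fold change 0.40, SE 0.0342). The paralogs both rose without overlap, and the TPM ratio of Der-1 to Der-2 was 3.37 ± 0.0838 at 2h APF and 2.47 ± 0.125 at wL3 (SD, n = 3 each).

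Edem1 and Edem2 mark misfolded glycoproteins for removal by trimming their mannoses. Edem1 was at 67.7, 71.2 and 69.2 CPM at 2h APF, against 59.4, 60.3 and 54.4 CPM at wL3, a log2 fold change of 0.26 (SE 0.0483, adjusted p = 0.00258, edgeR). Edem2 was at 114, 118 and 119 CPM at 2h APF, against 75.6, 73.1 and 71.1 CPM at wL3 (log2 fold change 0.67, SE 0.0371). Edem1 had the smallest log2 fold change of its class. The gene sip3, the fly homolog of the ER ubiquitin ligase Hrd1, had a log2 fold change of 0.59 (SE 0.0561).

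The order of the classes by median log2 fold change was translocon 1.61, SRP receptor 1.12, chaperones and lectins 1.08, signal peptidase 1.04, SRP 0.97, disulfide formation 0.95, oligosaccharyltransferase 0.75, ER-associated degradation 0.59 and unfolded protein response 0.24. The classes hold between 2 and 6 genes and many of their ranges overlap. The lowest value of the translocon, 1.27, lay above every member of the signal peptidase, SRP, SRP receptor, disulfide formation, oligosaccharyltransferase and degradation classes. Summed per class, TPM at 2h APF was 3.05 times that at wL3 for the translocon, 2.70 times for chaperones and lectins, and between 1.54 and 2.15 times for the other classes. Across the 43 genes the log2 fold change was higher in genes with more RNA at wL3 (Pearson r = 0.51, Spearman rho = 0.53 with log2 TPM) and lower in longer transcripts (r = −0.35, rho = −0.36 with log2 length). These correlations are across genes that share the same 6 libraries, so they describe the list and carry no p. Called genes were spread over the genome, with 5 of 5 on 2L, 6 of 6 on 2R, 10 of 10 on 3L, 11 of 13 on 3R and 8 of 9 on X.

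**Figure D4:**
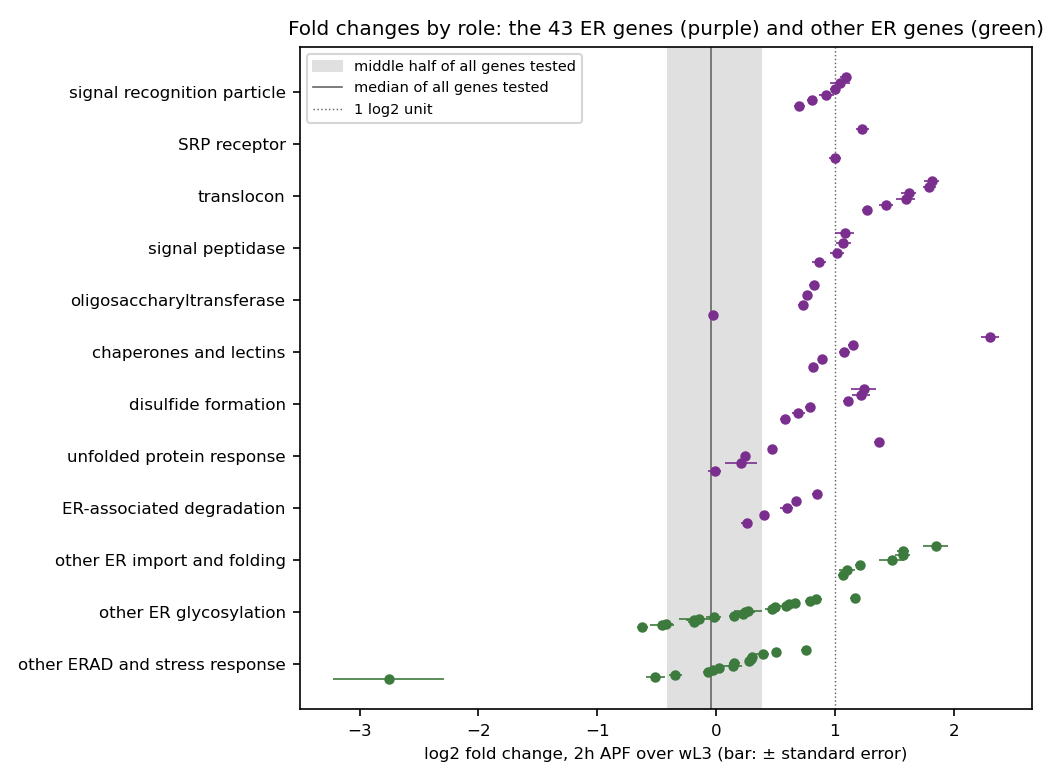
Log2 fold change of 2h APF over wL3 (x axis, bars ± standard error) of each of the 43 ER genes (purple) and of 40 other ER genes (green), in rows by role; the grey band spans the middle 50% of all genes tested, from −0.40 to 0.38, around their median of −0.04, and the dotted line is 1 log2 unit. All 6 translocon genes and all 7 other import and folding genes lie right of the dotted line, while other glycosylation and degradation genes lie on both sides of 0, with Thor at −2.76.

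A further 40 genes of the same organelle, listed by role with earlier results of these data known, were measured in the same fit. Of these, 25 rose, 7 fell and 8 did not pass the test, beside 30.6% higher and 36.9% lower over all genes tested. The 7 genes of import and folding all rose beyond 1 log2 unit, against 9.74% of all genes tested, with a median log2 fold change of 1.48. Scaling by total library size moved the median of all genes by −0.11, and the lowest of the 7 was at 1.07. How many of the 7 stay beyond 1 log2 unit with that scaling is not given here. Trp1, the fly Sec62, which in yeast and mammals helps short chains through the channel, was at 400.4, 526 and 454 CPM at 2h APF, against 137, 122 and 124 CPM at wL3 (log2 fold change 1.85, SE 0.103). The alpha subunit of TRAP, l(1)G0320, partner of SsRbeta, was at 1442, 1567 and 1496 CPM at 2h APF, against 538, 487 and 491 CPM at wL3 (log2 fold change 1.57, SE 0.0510). Both resembled the translocon genes of the main list in size of change. Manf, a small ER protein induced by ER stress, had a log2 fold change of 1.57 and Fkbp14, a prolyl isomerase, one of 1.48. The helpers of BiP were at 1.21 for the J-domain protein gene shv, 1.10 for the nucleotide exchange factor gene Sil1 and 1.07 for P58IPK.

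Among 19 other glycosylation genes 11 rose, 4 fell and 4 did not pass the test, beside 30.6% higher and 36.9% lower over all genes tested, and the median of the list was 0.24. Among those that rose were the oligosaccharyltransferase subunit genes Ostgamma and Dad1, with log2 fold changes of 1.17 and 0.84, the glucosyl donor synthase gene wol, with 0.79, and GCS2beta, a glucosidase subunit gene, with 0.66. The 4 that fell, named after their values were seen, were Alg9, Alg10, xit and GCS1, which add late mannoses and glucoses to the lipid-linked glycan or, in the case of GCS1, remove the outermost glucose from the protein. Their log2 fold changes were −0.45 for Alg9, −0.42 for Alg10, −0.62 for xit and −0.19 for GCS1. For GCS1 the adjusted p was 0.00947 by edgeR, 0.0508 by DESeq2 and 0.0532 without wL3 replicate 1.

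Among 14 other genes of degradation and stress response 7 rose, 3 fell and 4 did not pass the test. Over all genes tested 30.6% were higher and 36.9% lower. The median log2 fold change of the list was 0.15. Hrd3, the partner of the ligase encoded by sip3, had a log2 fold change of 0.76, TER94, the ATPase that pulls chains out of the ER, one of 0.51, and Herp one of 0.30. Thor, the translation repressor 4E-BP, which is induced by the ATF4 encoded by crc and by FOXO in flies, fell by 2.76 on the log2 scale (SE 0.465, adjusted p = 0.00155, edgeR). It was at 2.35, 2.90 and 3.40 CPM at 2h APF, against 8.30, 30.2 and 20.3 CPM at wL3, so the wL3 libraries differed strongly among themselves, and the lowest of them was replicate 1, the wL3 library with the lowest fat body and hemocyte markers. The part of those markers in the level of Thor was not tested. The other genes that fell, named after their values were seen, were trbl, which encodes the kinase-like protein Tribbles, with −0.34, and S1P, which encodes the protease that cleaves Atf6, with −0.51.

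The 43 genes were measured through 71 annotated transcripts, of which 69 could be tested. Of these, 53 rose, 0 fell and 16 did not pass the test, where 20.3% of all targets tested rose and 22.3% fell. At an unadjusted p under 0.05, 1 transcript was lower. DESeq2 gave 0 lower, and scaling by total library size gave 2, Stt3A-RA and crc-RB. In 30 genes only 1 target was matched, so it held all counts of the gene by construction. Among these, Stt3A, Ire1, Pdi and Srp14 had estimated counts that were not whole numbers. Some of their reads may have been divided with targets outside the gene, and 2162 FlyBase targets were matched to no gene. In 11 genes at least 2 transcripts each held 10% or more of the counts in a stage. Reads that fit several transcripts were divided among them by kallisto's estimate, so shares are less certain than gene sums.

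**Figure D5:**
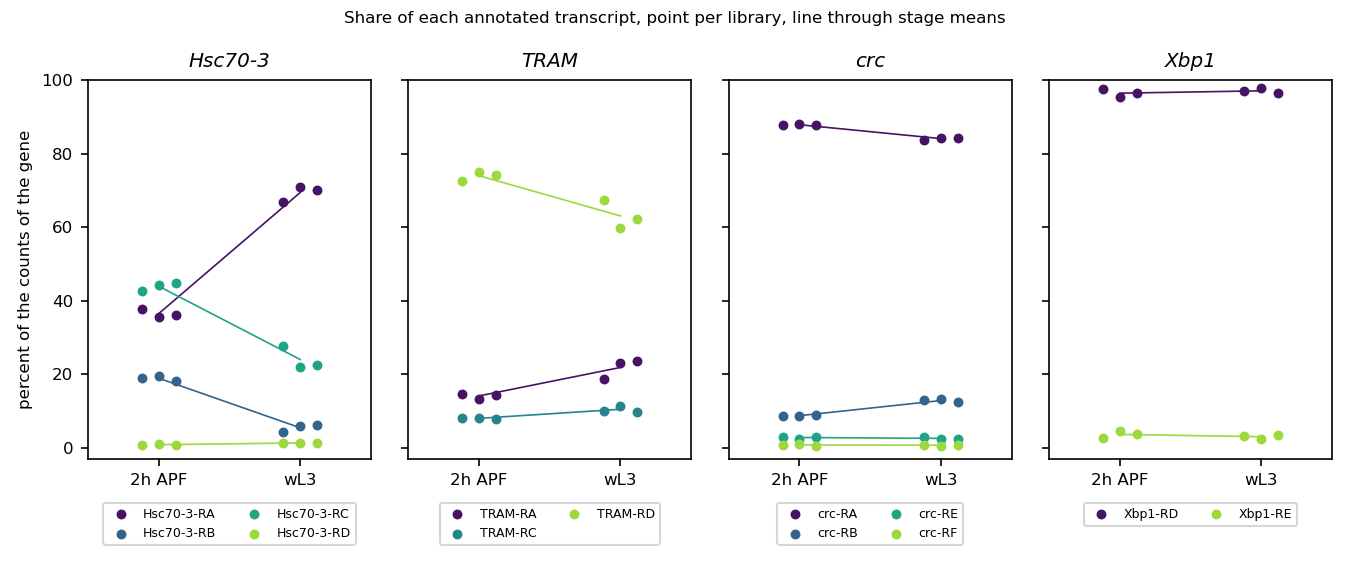
Share of the counts of a gene (y axis, percent) held by its annotated transcripts in Hsc70-3, TRAM, crc and Xbp1, with a point per library, 2h APF at the left and wL3 at the right of each panel, and lines joining the stage means. Hsc70-3-RA holds 36.4% at 2h APF and 69.4% at wL3, Hsc70-3-RC and Hsc70-3-RB hold more at 2h APF, and the shares of Xbp1-RE overlap between the stages.

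The transcripts of Hsc70-3 changed in share as well as in level. Those measured carry the same coding sequence of 1968 bases and differ in the noncoding first exon. That exon measures 110 bases in Hsc70-3-RA, 249 bases in Hsc70-3-RB, 76 bases in Hsc70-3-RC and 276 bases in Hsc70-3-RD. The annotation also holds Hsc70-3-RE, with a first exon at 11804897-11805121. It was not among the deposited targets, so its share could not be estimated. On the minus strand of X, the first exon of RB starts farthest upstream (11806869-11807117), that of RA lies between (11806244-11806353) and that of RC nearest to the coding exons (11805289-11805364). Hsc70-3-RA held 37.8%, 35.4% and 36.2% of the counts of the gene at 2h APF, against 66.9%, 71.0% and 70.2% at wL3. Hsc70-3-RC held 42.6%, 44.3% and 44.9% at 2h APF, against 27.5%, 22.0% and 22.4% at wL3. Hsc70-3-RB held 19.0%, 19.4% and 18.2% at 2h APF, against 4.24%, 5.86% and 6.10% at wL3. None of these shares overlapped between the stages, and RC took the place of RA as the leading transcript. All rose in level, RB with a log2 fold change of 4.10 (SE 0.109, adjusted p = 2.94e-05), RC with 3.14 (SE 0.170, adjusted p = 6.31e-05) and RA with 1.35 (SE 0.0552, adjusted p = 3.55e-05) by edgeR over all targets, while the minor RD, with under 2% of the counts, was at 1.61.

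A smaller shift was seen in TRAM. TRAM-RD held 73.96% ± 1.19 of the counts at 2h APF and 63.0% ± 3.85 at wL3, and TRAM-RA held 14.1% ± 0.729 at 2h APF and 21.8% ± 2.80 at wL3 (SD, n = 3 each). Both rose, with log2 fold changes of 1.82 for RD and 0.97 for RA. In crc, crc-RA held 87.8% ± 0.156 at 2h APF and 84.1% ± 0.285 at wL3, and crc-RB held 8.68% ± 0.0862 at 2h APF and 12.8% ± 0.320 at wL3 (SD, n = 3 each). Only crc-RA of the pair rose, with a log2 fold change of 0.50, and crc-RB was at −0.12 (adjusted p = 0.0547, edgeR), or called lower at −0.21 (adjusted p = 0.00493, edgeR) when scaled by total library size. The exons of crc share 2515 bases on the same strand with the separately annotated gene CG46314, and 2515 bases is also the length of crc-RB. The exons of 293 and 1043 bases in crc-RB are also exons of crc-RA. The reads of crc-RB, and those of crc-RA in these exons, therefore cannot be assigned with certainty.

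Of the other genes with several major transcripts, some rose in all of them and some did not. In SrpRbeta, RA held 16.7% ± 1.54 at 2h APF and 12.6% ± 0.997 at wL3, and both RA and RB rose, with log2 fold changes of 1.61 and 1.13. In Spase22-23, RB held 13.4% ± 0.430 at 2h APF and 11.8% ± 0.657 at wL3, and RA and RB were at 0.81 and 1.02. In Cnx99A, RA held 11.6% ± 0.709 at 2h APF and 15.1% ± 3.33 at wL3, and RA and RB were at 0.49 and 0.92, the call of RA being lost under total library size (adjusted p = 0.0475 with TMM and 0.0858 without, edgeR). These were shifts of a few percentage points in genes whose transcripts moved the same way. Edem1 differed in that RB and RD rose, with log2 fold changes of 0.44 and 0.34, while RA was at −0.57 (adjusted p = 0.269, edgeR) and held 5.94%, 11.1% and 16.4% of the counts at 2h APF, against 19.6%, 20.6% and 18.0% at wL3. In Edem2 the transcripts RA and RB rose alike, with 0.66 and 0.61, and their shares overlapped between the stages. The transcripts RA, RB and RC of Atf6 did not pass edgeR's test, with log2 fold changes of 0.23, 0.03 and 0.30, while DESeq2 called RA (adjusted p = 0.00348) and RC (adjusted p = 0.0257) higher. Their shares overlapped as well. In sip3, RB rose with 0.58 and RA was at 0.46 (adjusted p = 0.371, edgeR), with overlapping shares. In PEK neither major transcript passed the test, with 0.10 for RA and −0.92 (SE 0.772) for RC, whose share at 2h APF ranged widely, from 0.963% to 14.3%.

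Xbp1 is spliced outside the nucleus by Ire1, and the annotation holds both forms. Xbp1-RE lacks a 23-base intron that the main transcript Xbp1-RD keeps, its target sequence is 23 bases shorter, and its coding sequence is 1494 bases long where that of Xbp1-RD is 921. It was singled out for this role, after its values had been seen. Xbp1-RE held 2.58%, 4.57% and 3.60% of the counts of Xbp1 at 2h APF, and 3.07%, 2.31% and 3.47% at wL3. The shares overlapped between the stages, with 3.58% ± 0.995 at 2h APF and 2.95% ± 0.590 at wL3 (SD, n = 3 each). The level of Xbp1-RE rose with that of the gene, with a log2 fold change of 1.62 (SE 0.262, adjusted p = 0.00394, edgeR) beside 1.33 (SE 0.0462) for Xbp1-RD. Since mainly reads across the splice junction tell the forms apart, the share rests on few of the reads of the gene.

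Exons of 19 of the 43 genes overlap another annotated gene, in most cases on the opposite strand. The library kit keeps the strand of the RNA, but whether the counting used it is not given in the sources used here, so reads from such a pair may not be told apart. Besides those of Sec63, Spase12, twr, Ire1 and crc, the longer overlaps included 807 exon bases of Atf6 with an annotated transposon insertion and 501 exon bases of Pdi with an antisense RNA gene.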

How the data were processed

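Per the labels and the methods of the study, polyA+ RNA of leg discs of white [1118] animals was sequenced strand-specifically in 3 libraries at 2h APF and 3 at wL3. The labels of the extraction step speak of embryos, whereas the design and the methods name leg discs, which was followed. The authors assigned the reads with kallisto to Ensembl 74 transcripts and added lincRNAs, and deposited, for 42506 targets in each library, an estimated count and a TPM (the submitters' processing notes name kallisto and sleuth, with no version given here, and build dm3).

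From the deposited estimated counts, 27011 of 29173 FlyBase targets, with between 96.4% and 96.6% of the counts, were matched by identifier to the BDGP6.54 annotation (Ensembl), summed per gene and rounded. Genes with identical values were counted once, which left 15133. Coordinates are those of BDGP6.54. Stages were compared with edgeR 4.0.16 in R 4.3.3 (TMM, filterByExpr, quasi-likelihood test, Benjamini-Hochberg over 8943 genes or 17601 targets), as sleuth needs resampled counts. The SE is the log2 fold change divided by the square root of F. CPM is on the TMM scale, and levels of different genes were compared by deposited TPM. Scripts were tested on simulated data.

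The 43 genes, the 40 others and the marker lists were chosen with earlier results of these data known. All 43 could be named, and of the others those beyond 1 log2 unit and up to 3 more per list with the smallest p. Of the listed genes, SsRdelta and Sgs4 were not matched and not analysed here. Transcripts were named at 10% or more of the counts of a gene with at least 2 such transcripts. Alternatives were total library size, DESeq2 1.42.0, 2 filters on counts, limma 3.58.1 on log2 of TPM plus 0.5 or 0.1, a block for the replicate number, and dropping each library in turn. Tables were made with Python 3.11.15, pandas 2.3.3 and numpy 2.4.6, and plots with matplotlib 3.10.9.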

Additional observations from a re-analysis of the deposited data

How the results depend on the processing

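Under 13 alternatives the 40 ER genes that rose kept their direction and passed the test in each. Of 559 fold changes of the 43 genes under these alternatives, 549 kept direction and call, 9 changed sign and 1 newly passed the test, and those that changed all belonged to Stt3A and PEK. Stt3A was at 0.0191 with DESeq2 and 0.00969 with at least 10 counts in every library, and between −0.0471 and 0.0320 as each library was left out, with the sign changed without wL3 replicate 1. PEK was at 0.0332 with DESeq2 and 0.0244 with at least 10 counts in every library, and between −0.0700 and 0.0276 as each library was left out, with the sign changed without 2h APF replicate 2 or 3 and without wL3 replicate 1 or 3. None of these passed the test. Total library size moved the median of all genes by −0.11 (2209 genes higher and 4130 lower, 34.8% of the calls higher, against 2734, 3296 and 45.3% with TMM). With that scaling 12 rather than 20 ER genes rose beyond 1 log2 unit, 1 fell (Stt3A, −0.14, adjusted p = 0.00688), 2 of the ER gene transcripts fell, Stt3A-RA and crc-RB (−0.206), Cnx99A-RA was no longer called (0.403), and Atf6-RB was at −0.0530. DESeq2 called Atf6-RA (0.268) and Atf6-RC (0.331) higher. Leaving out each library gave between 17 and 22 ER genes beyond 1 log2 unit, 40 higher and 0 lower. Deviations from the stage means correlated at −0.003, 0.147 and −0.255 between same-numbered libraries, and at −0.240 to 0.285 between differently numbered ones. With 3 libraries per stage these values cannot settle whether the numbers pair the libraries. With the replicate block 40 ER genes rose, 0 fell, 21 rose beyond 1 log2 unit and 53 transcripts rose. For 21 named companion genes, settings added after the data were seen changed a call for GCS1 only. With 3 libraries per stage, the change of Ire1 (0.21, SE 0.136) did not pass the test at its own spread. That of Atf6, of similar size but with less spread (0.24, SE 0.0371), did.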
